A study of Mus musculus with 10 samples.

Results

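Chemokines are small secreted or membrane-bound proteins that guide migrating cells. They act through receptors of the Ccr and Cxcr families, which couple to inhibitory G proteins. Atypical receptors of the Ackr family bind chemokines without this coupling and take them up or present them. Hematopoietic stem cells use Cxcr4 to follow Cxcl12, which is made by stromal cells of their niche, and this pair is known for the seeding of the bone marrow from the fetal liver. The values below describe the RNA of this gene family in long-term hematopoietic stem cells (LT-HSCs) of the mouse fetal liver. The family was taken as every row of the gene table whose symbol starts with Ccl, Cxcl, Ccr, Cxcr or Ackr followed by a digit. This rule gave 44 of 17404 genes, of which 28 are ligands and 16 are receptors, the latter divided into 12 conventional receptors of the Ccr and Cxcr families and 4 atypical ones.

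LT-HSCs were sorted as lineage-negative, c-Kit+, Sca1+, CD48- and CD150+ cells at E14.5 and sequenced in bulk, with 6 KO libraries (genotype Tnfrsf11aCre; Spi1f/f) beside 4 WT libraries (genotype Tnfrsf11a+/+; Spi1f/f), all on a C57BL/6 background. Both groups carry the floxed alleles of Spi1, which encodes PU.1, and only the KO group carries Cre recombinase, which is driven by the Tnfrsf11a locus. Per the study, WT embryos were littermates of KO embryos, but which embryos shared a litter is not in the labels. That locus is active in precursors of macrophages, so the model removes PU.1 from the macrophage lineage, and the comparison asks how LT-HSCs differ when fetal macrophages are depleted. KO libraries are numbered 15405, 15406, 15409, 15411, 15412 and 15415, and WT libraries 15416, 15417, 15418 and 15420. The 4 WT values of a gene are given in that order.

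Depth ran from 5315435 to 30941726 counts on genes in KO and from 7633446 to 18256010 in WT libraries. Of the 14 genes listed for LT-HSCs, 12 summed to 787 to 2092 CPM in KO and 664 to 866 CPM in WT, with counts of each in every library, where CPM are counts scaled to the library total with TMM normalisation factors. The other two were Cd48, whose protein the sort gate selects against, with 0.27 to 13.3 CPM, and Flt3, which is known from multipotent progenitors, with 2.73 to 29.7 CPM over all libraries. Spi1 RNA itself was at 9.10 to 101 CPM in KO and 6.22 to 50.1 CPM in WT, so it does not separate the labels. RNA of other cells was present in uneven amounts. The 12 endothelial genes summed to 1429 to 8674 CPM in KO and to 461, 5583, 4311 and 5293 CPM in WT, and the 9 hepatoblast genes reached 6824, 8931 and 6096 CPM in KO 15412, KO 15415 and WT 15418, against at most 1435 CPM elsewhere. WT 15416 had the lowest correlation with the other libraries and the lowest endothelial level. Marco, a macrophage scavenger receptor, had 0 counts in all 6 KO libraries and was the 1 gene of 14 macrophage markers that passed as lower. Xist, which is transcribed from the inactive X chromosome of female cells, was at 106 to 149 CPM in the WT libraries and at 361 and 346 CPM in KO 15406 and KO 15409, but at no more than 2.38 CPM in the other 4 KO libraries. Embryo sex was thus unevenly spread over the genotypes. In bulk RNA, fewer cells of a type and less RNA per cell cannot be told apart.

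Most of the family was close to the detection limit in these cells. A level of 1 CPM was reached in every library by 9 of 44 members (20.5%), against 10258 of all 17404 genes (58.9%). These 9 were the receptors Ackr1, Ackr3, Cxcr2 and Cxcr4 and the ligands Ccl4, Ccl9, Ccl25, Cxcl12 and Cxcl16. The limit was reached in no library by 13 members. Each library had 14 to 25 members at or above it, the fewest in WT 15416 and the most in KO 15412, which was also the deepest library.

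None of the family passed the test between genotypes. Of the 44 members, 42 had the 11 counts in total that were needed for testing, and Ccl11 and Cxcr5 had not. With edgeR's quasi-likelihood test and Benjamini-Hochberg adjustment, 0 members were higher and 0 lower in KO at an adjusted p below 0.1, a threshold passed by 1.32% of the 16725 genes tested in the higher and 2.67% in the lower direction. Without adjustment, p was below 0.05 for 1 member in the higher (Cxcl2) and 2 in the lower direction (Ccl2 and Ccl7), against 8.6% and 10.2% of all genes tested. The estimated log2 fold change, KO over WT, was above 0 for 24 members and below 0 for 18. Its median was 0.35 over the 42 members, 0.51 over the 27 ligands tested and 0.32 over the 15 receptors tested, beside 0.06 over all genes tested. In DESeq2 with the setting of the study, a minimum log2 fold change of 0.1, 0 members passed in either direction, against 4.1% of genes higher and 3.86% lower. It gave an adjusted p for 24 of the members. Without that threshold, DESeq2 called 1 member higher (Ccr9) and 1 lower (Ccl7), against 6.84% and 7.85% of genes.

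**Figure D1:**
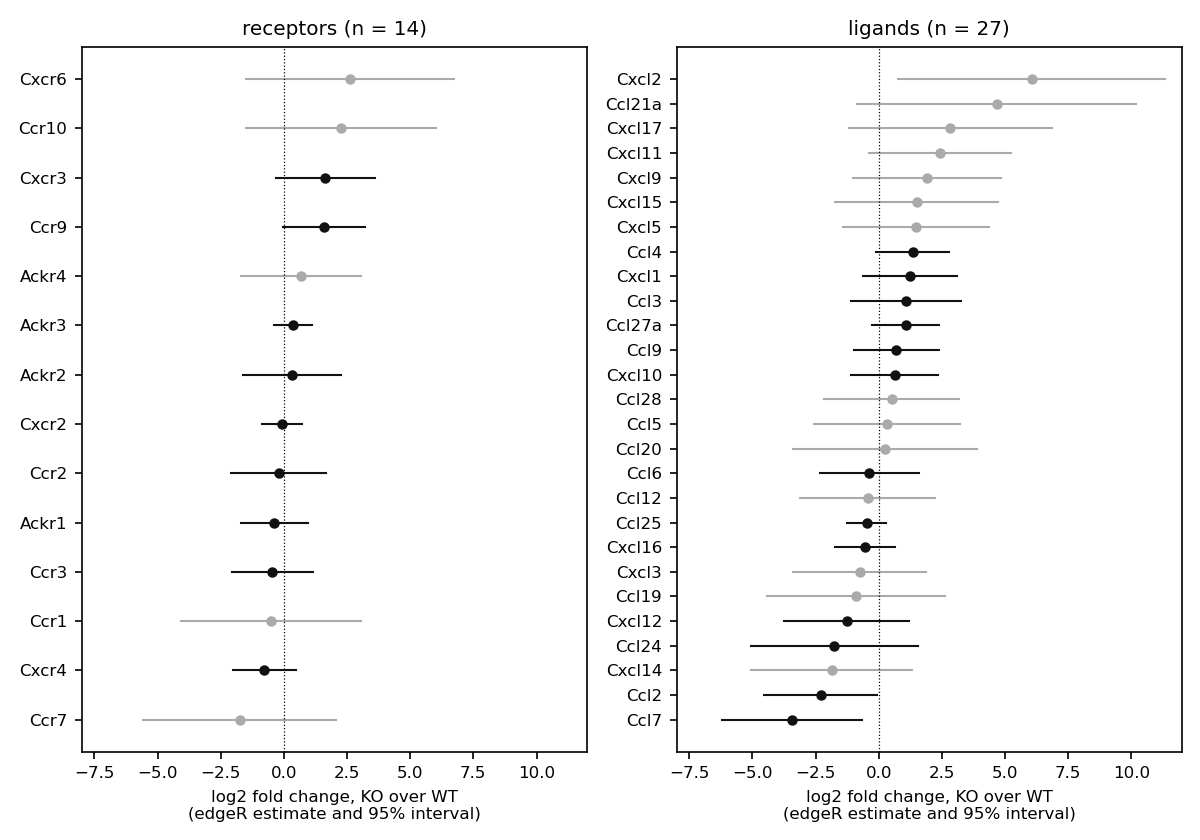
Log2 fold change (KO over WT) of 14 receptors and 27 ligands, with the 95% interval from edgeR; black marks members described with values per library, grey the others. The intervals of all members shown but Cxcl2, Ccl2 and Ccl7 include 0, and those 3 did not pass after adjustment.

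Summed over each role, the genotypes differed by less than the spread between libraries. The 28 ligands summed to 100.2 ± 36.9 CPM (SD, n = 6) in KO and to 198, 87.8, 96.7 and 138 CPM in WT. For the 12 conventional receptors the sum was 38.8 ± 12.9 CPM in KO (SD, n = 6) against 43.0 ± 14.3 CPM in WT (SD, n = 4), and for the 4 atypical receptors 68.1 ± 27.3 CPM against 76.1 ± 55.5 CPM. Receptors together exceeded ligands in 3 of 6 KO and 3 of 4 WT libraries on the CPM scale. This balance holds only for the family as taken by symbol. It leaves out the ligands Pf4 and Ppbp, which have other names. Their means were 544.5 and 369.5 CPM in KO, and 254.4 and 160.3 CPM in WT. Per CPM of ligand there were 0.53 to 1.98 CPM of receptor in KO, and 0.25, 1.06, 2.00 and 1.02 in WT. CPM are not corrected for the length of a gene, and in TPM, which are, receptors exceeded ligands in 2 of 6 KO and 1 of 4 WT libraries. The ratio in TPM was 0.42 to 1.94 in KO and 0.38, 0.94, 1.64 and 0.66 in WT. Conventional receptors alone were below the ligands in every library on both scales, in CPM at 0.20 to 0.68 CPM per CPM of ligand in KO and 0.14 to 0.48 in WT.

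The direction of the group difference in these sums depended on the scale. Between CPM and TPM both differences changed sign, but TPM also carry no TMM factors, so 2 choices change at once. Ligands summed to 98.0 ± 32.5 TPM (SD, n = 6) in KO and 75.6 ± 27.4 TPM (SD, n = 4) in WT, and all receptors to 78.2 ± 29.9 and 63.4 ± 27.9 TPM. The log2 ratio of the group means for ligands was -0.38 in CPM and 0.38 in TPM, and for receptors -0.16 and 0.30, each smaller than the pooled SD between libraries in CPM, 0.55 and 0.59 on the log2 scale. With 1 choice changed at a time, both chosen after seeing the data, the ratios for ligands and receptors were -0.14 and 0.16 in CPM without TMM factors, and 0.11 and -0.018 in TPM divided by TMM factors. No p is given for these sums, since the members were chosen with earlier results known.

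**Figure D2:**
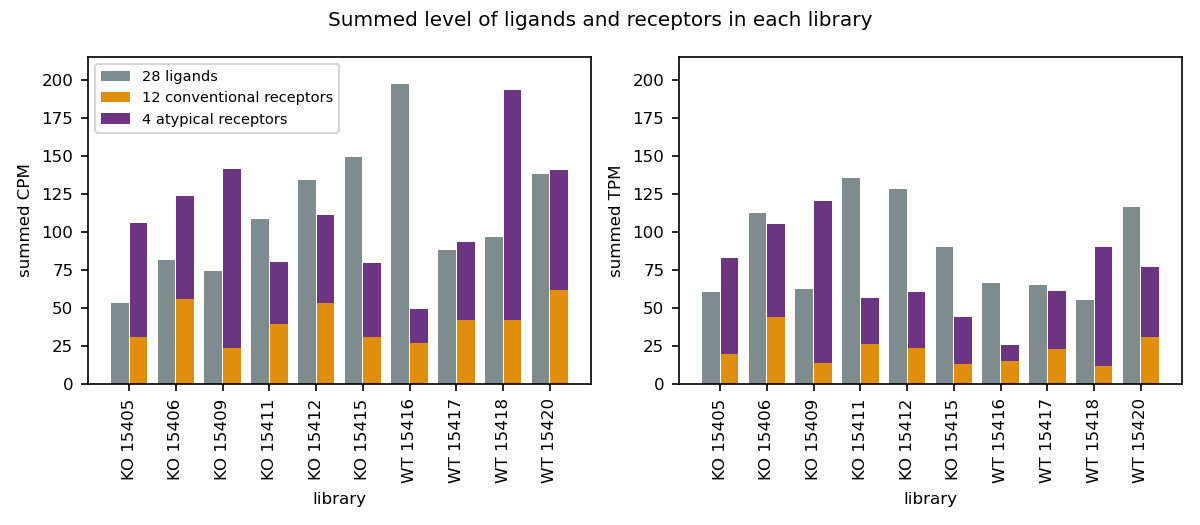
Summed CPM (left) and TPM (right) of the 28 ligands (grey) and of the receptors (12 conventional in orange, 4 atypical in purple) in each of the 10 libraries; each bar is 1 library. The ligand bar of WT 15416 and the atypical receptor bar of WT 15418 are the tallest in CPM.

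Ackr1 had the highest level of any receptor per transcript length. It was formerly called Darc, binds many inflammatory chemokines, and is known from erythroid cells and venules. At 42.9 ± 26.4 TPM (SD, n = 10 libraries) it was above Cxcr4, the next in order, in 10 of 10 libraries, and it made up 38.1% to 79.4% of the summed receptor TPM in KO and 25.7% to 82.6% in WT. In CPM it ranged from 17.7 to 89.7 with a median of 39.9 in KO, and stood at 8.49, 38.2, 134 and 50.5 in WT. WT thus held both the lowest and the highest library. The log2 fold change was -0.37 (standard error 0.60, 95% interval -1.68 to 0.94, adjusted p = 0.793). It turned to 0.51 (adjusted p = 0.636) without WT 15418. That library had the highest sum of the 5 erythroblast genes in the table, 5743 CPM against 171 to 2010 in the others, while the second highest Ackr1 level, in KO 15409, came with the highest endothelial sum and the lowest erythroblast sum. The part of these cells in the Ackr1 level was not tested. The gene, on chromosome 1 of GRCm38 from 173331886 to 173333750, shares 25.7% of its exonic bases with Cadm3 on the same strand, so its estimate is uncertain.

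Ackr3, the scavenging receptor of Cxcl12 and Cxcl11, had at least 1 CPM in every library. Its 6 KO libraries lay between 11.6 and 17.2 CPM with a median of 16.0, and the WT libraries were at 13.7, 6.30, 8.28 and 18.4 CPM. The WT values spanned those of KO (log2 fold change 0.37, standard error 0.34, 95% interval -0.38 to 1.11, adjusted p = 0.612). Ackr2, which degrades inflammatory CC chemokines, was at 2.56 to 15.1 CPM (median 6.81) in KO and at 0, 6.57, 9.69 and 10.2 CPM in WT. The library without a single count, WT 15416, also had the lowest endothelial sum. A count of 0 there allows up to 3 counts, and the log2 fold change, 0.32 with it (standard error 0.89, adjusted p = 0.882), became -0.10 (adjusted p = 0.949) without it. Ackr4, which binds Ccl19, Ccl21 and Ccl25, had 20 counts over all libraries.

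Among conventional receptors, Cxcr4 had the highest mean, at 9.79 ± 8.03 TPM (SD, n = 10 libraries), and was above Ackr3, the next receptor of any kind, in 8 of 10. In KO 15409, Cxcr4 was below Cxcr2 (2.14 against 3.86 TPM). Of the summed TPM of conventional receptors it made up 15.8% to 54.7% in KO libraries and between 31.6% and 74.5% in WT. In CPM it ran from 3.25 to 25.6 with a median of 8.53 in KO, and was at 7.13, 19.7, 10.7 and 35.1 in WT. The highest library was WT 15420 and the lowest KO 15409, and the groups overlapped. The log2 fold change was -0.77 (standard error 0.57, 95% interval -2.002 to 0.46, adjusted p = 0.499), below 0 under every alternative, from -1.23 to -0.24. The gene lies on chromosome 1 of GRCm38 from 128588199 to 128592293.

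Cxcl12, its ligand, was set by a few libraries. In KO it was at 1.52 to 76.1 CPM with a median of 10.01, and in WT at 164, 13.4, 11.2 and 8.92 CPM. The highest value of each group, in WT 15416 and KO 15415, was far from the rest, and the other 8 libraries lay between 1.52 and 22.2 CPM. These 2 libraries were also the highest for Dcn, which encodes the stromal matrix protein decorin, with 132 and 67.1 CPM against 3.595 to 38.2 CPM elsewhere. The 9 stromal genes together did not follow the same order, since their sum was highest in KO 15406 (299.7 CPM, with Col1a1 at 86.5 and Col3a1 at 77.3 CPM), where Cxcl12 was at 10.3 CPM, and then in WT 15416 (260 CPM) and KO 15415 (186 CPM). The part of stromal RNA in Cxcl12 was not tested. The log2 fold change was -1.27 (standard error 1.12, 95% interval -3.75 to 1.21, adjusted p = 0.59), but 0.88 (adjusted p = 0.696) without WT 15416 and -2.39 (adjusted p = 0.25) without KO 15415. In WT 15416, Cxcl12 made up 83.1% of the summed ligand CPM, against 6.45% to 15.2% in the other WT libraries.

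The reads on Cxcl12 were divided by the authors' quantification over 4 transcripts. Cxcl12-201, the longest at 5627 bases, took 44.7% of the Cxcl12 TPM in WT 15416 and 39.9% in KO 15415, and 0% to 26.5% in the other 8 libraries. Cxcl12-202, with 1878 bases, held 43.2% to 83.9% (median 66.6%) in KO and 37.6%, 36.8%, 72.3% and 72.8% in WT, so the libraries richest in Cxcl12 also had the largest share of the long form. Most libraries had few reads to divide, and these shares carry no test. Cxcl12 lies on chromosome 6 of GRCm38 from 117168535 to 117181367.

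**Figure D3:**
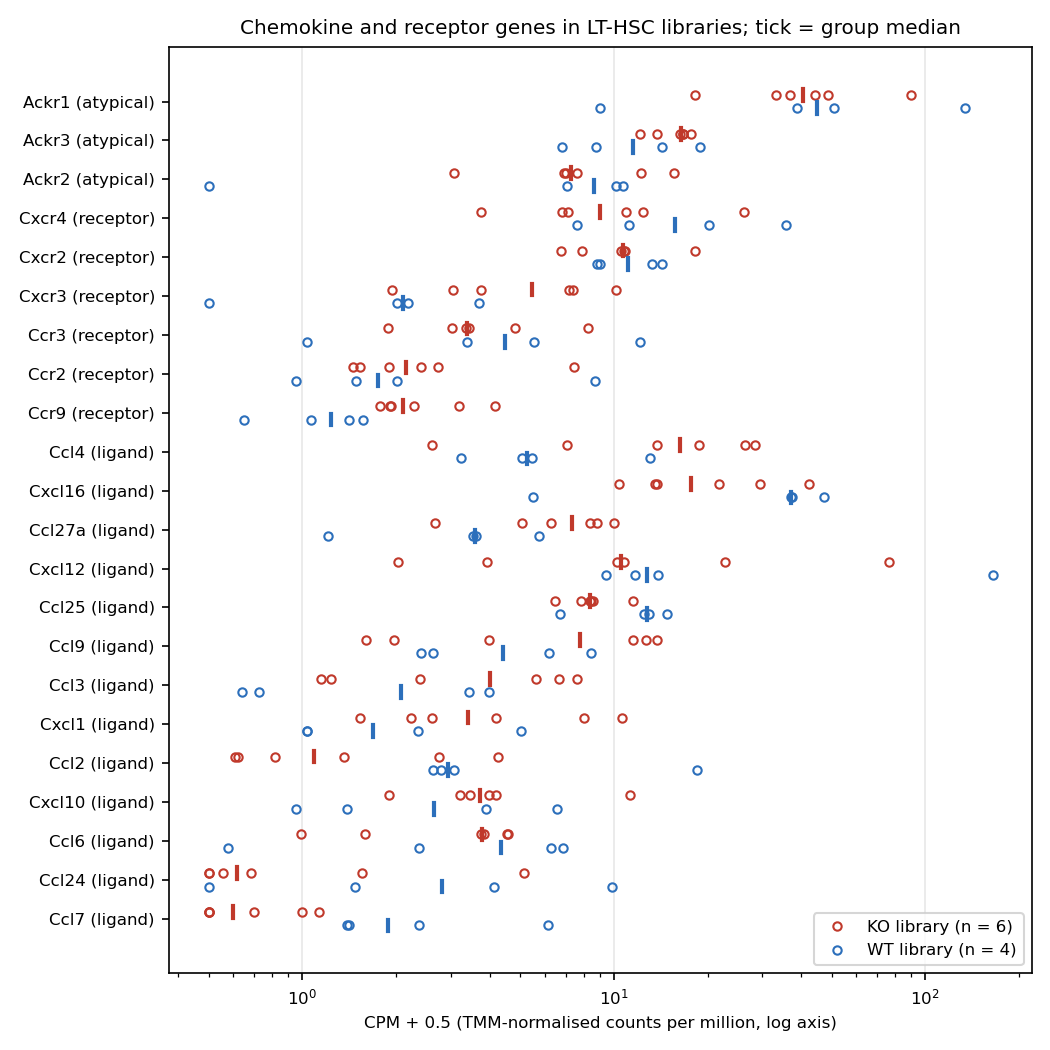
CPM (with 0.5 added, log axis) of the 22 members described with values per library, one row per gene, as circles for 6 KO (red) and 4 WT (blue) libraries with a tick at the group median. The groups overlap for every gene shown except Ccr9 and Ccl7, and the WT libraries 15416 for Cxcl12 and 15420 for Ccl2 stand far to the right.

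The inflammatory CC ligands Ccl3 and Ccl4 had higher medians in KO, but did not pass the test. Ccl4 had the highest mean level of the family's ligands, at 20.3 ± 17.6 TPM (SD, n = 10 libraries). In CPM, Ccl4 ranged from 2.11 to 27.96 with a median of 15.8 in KO, and was at 2.73, 4.97, 4.59 and 12.6 in WT. Every KO library but 15405 and 15409 lay above all of WT. The log2 fold change was 1.34 (standard error 0.67, 95% interval -0.11 to 2.80, adjusted p = 0.303), above 0 under every alternative, from 0.89 to 1.94. Ccl3 lay between 0.65 and 7.10 CPM (median 3.51) in KO and at 0.23, 2.93, 3.47 and 0.14 CPM in WT, (log2 fold change 1.07, standard error 1.005, adjusted p = 0.613). Ccl5, a further attractant of T cells and monocytes, had 49 counts in all. Ccl4 is on chromosome 11 of GRCm38 from 83662584 to 83664683, next to Ccl3 (83647844 to 83649355).

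The monocyte attractants Ccl2 and Ccl7, ligands of Ccr2, had their lowest levels in KO libraries. Ccl2 was at 0.11 to 3.74 CPM (median 0.59) in KO and at 2.12, 2.57, 2.29 and 17.97 CPM in WT. KO 15412 and KO 15415 reached into the range of WT, and WT 15420 stood far above all others. The log2 fold change was -2.30 (standard error 1.03, 95% interval -4.53 to -0.07, unadjusted p = 0.0442, adjusted p = 0.25). It was below 0 under every alternative, from -4.44 to -0.89, and rested largely on WT 15420, without which it was -0.89 (adjusted p = 0.681). Ccl7 had 0, 4, 0, 0, 16 and 3 counts in the KO libraries and 12, 21, 12 and 40 in WT. That corresponds to at most 0.63 CPM in KO and at least 0.89 CPM in WT, so the groups did not overlap, as held for 3.48% of all genes tested with KO as the lower group. Its log2 fold change was -3.43 (standard error 1.27, 95% interval -6.19 to -0.67, unadjusted p = 0.0188, adjusted p = 0.176). It stayed negative under every alternative, from -4.52 to -2.51, and passed in 1 of them (DESeq2 without a fold-change threshold, adjusted p = 0.0624). Both genes are on chromosome 11 of GRCm38, Ccl2 from 82035571 to 82037453 and Ccl7 from 82045712 to 82047525.

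Ccr2, the monocyte receptor of both, showed no such order. It was at 0.95 to 6.93 CPM (median 1.65) in KO and at 0.46, 1.51, 8.21 and 0.99 CPM in WT. Its highest libraries, WT 15418 and KO 15412, were also the highest for the 11 neutrophil genes, with sums of 2167 and 1341 CPM against 8.49 to 419 elsewhere; the part of myeloid RNA in Ccr2 was not tested. Its log2 fold change, -0.21 over all libraries (standard error 0.87, adjusted p = 0.925), turned to 1.33 (adjusted p = 0.418) without WT 15418. Ccl12, a further ligand of Ccr2, had 71 counts over all libraries.

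Of the other CC ligands, Ccl25 and Ccl9 were at 1 CPM or more in every library. Ccl25, which attracts cells with Ccr9, was at 5.98 to 11.03 CPM (median 7.91) in KO and 12.5, 14.3, 6.21 and 12.03 CPM in WT. All WT libraries but 15418 were above every KO library, and the log2 fold change was -0.48 (standard error 0.35, 95% interval -1.25 to 0.28, adjusted p = 0.491). Ccr9, its receptor, was low in both groups, at 1.27 to 3.65 CPM (median 1.60) in KO and 0.91, 1.07, 0.15 and 0.57 CPM in WT. No KO library was below a WT library, as held for 2.88% of all genes tested with KO as the higher group. Ccr9 had a log2 fold change of 1.59 (standard error 0.75, 95% interval -0.03 to 3.21, adjusted p = 0.276). It was above 0 under every alternative, 1.03 to 1.90, and passed in 1 of them (DESeq2 without a fold-change threshold, adjusted p = 0.0999). Ccr9 shares 18.8% of its exonic bases with AC165425.1 on the other strand, which these unstranded reads cannot separate, and it lies on chromosome 9 of GRCm38 from 123678439 to 123784330.

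Ccl27a, best known from skin, ranged from 2.17 to 9.48 CPM (median 6.83) in KO and was at 3.03, 3.11, 5.25 and 0.71 CPM in WT (log2 fold change 1.06, standard error 0.61, adjusted p = 0.374). It has near-identical copies in the genome, so its level is uncertain, and its receptor Ccr10 had only 26 counts in all. Ccl6 and Ccl9, which bind Ccr1, were at 0.49 to 4.08 CPM (median 3.28) and 1.10 to 13.2 CPM (median 7.27) in KO. In WT, Ccl6 was at 0.08, 1.86, 6.36 and 5.80 CPM and Ccl9 at 1.90, 2.13, 5.69 and 7.93 CPM. Their log2 fold changes were -0.38 (standard error 0.90, adjusted p = 0.863) and 0.69 (standard error 0.78, adjusted p = 0.681), both smaller than the standard error. Ccr1 itself had 261 counts in all, from 5 libraries.

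Ccl24 and Ccr3, its receptor on eosinophils, were both highest in WT 15420. Ccl24 was at 0 to 4.64 CPM (median 0.12) in KO and 0, 0.98, 3.62 and 9.34 CPM in WT (log2 fold change -1.76, standard error 1.53, adjusted p = 0.578). Ccr3 was at 1.38 to 7.78 CPM (median 2.88) in KO and 0.53, 5.06, 2.88 and 11.6 CPM in WT (log2 fold change -0.45, standard error 0.74, adjusted p = 0.793). In WT 15420, the 7 eosinophil, basophil and mast cell genes in the table summed to 0 CPM. Their sum was highest in KO 15415 (110 CPM), followed by WT 15418 (65.7 CPM). The part of these cells in Ccl24 and Ccr3 was not tested. Ccl11, a further ligand of Ccr3, had 3 counts in all.

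Cxcl16, a membrane-bound chemokine, was the second ligand of the family by level, at 15.1 ± 9.74 TPM (SD, n = 10 libraries). Its receptor Cxcr6 was near absent, with 19 counts over all libraries. In KO, Cxcl16 was at 9.86 to 41.9 CPM (median 17.2), and in WT at 5.005, 36.5, 36.8 and 46.8 CPM. WT 15416 was the lowest of all, and the other 3 WT libraries exceeded 5 of the 6 KO libraries. WT 15416 and KO 15415, the pair with the lowest endothelial sums, had the least Cxcl16, and KO 15409, with the highest endothelial sum, had the second highest Cxcl16 of all libraries (41.9 CPM). The libraries between did not keep this order. KO 15405, with an endothelial sum of 6910 CPM, had 21.2 CPM of Cxcl16, less than KO 15411 with 4042 and 29.0 CPM. The part of endothelial RNA in the Cxcl16 level was not tested. The log2 fold change was -0.54 (standard error 0.54, 95% interval -1.72 to 0.63, adjusted p = 0.635). It was below 0 under every alternative, from -0.90 to -0.13. Cxcl16 shares 18.3% of its exonic bases with Zmynd15 on the other strand, so part of its reads is uncertain.

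**Figure D4:**
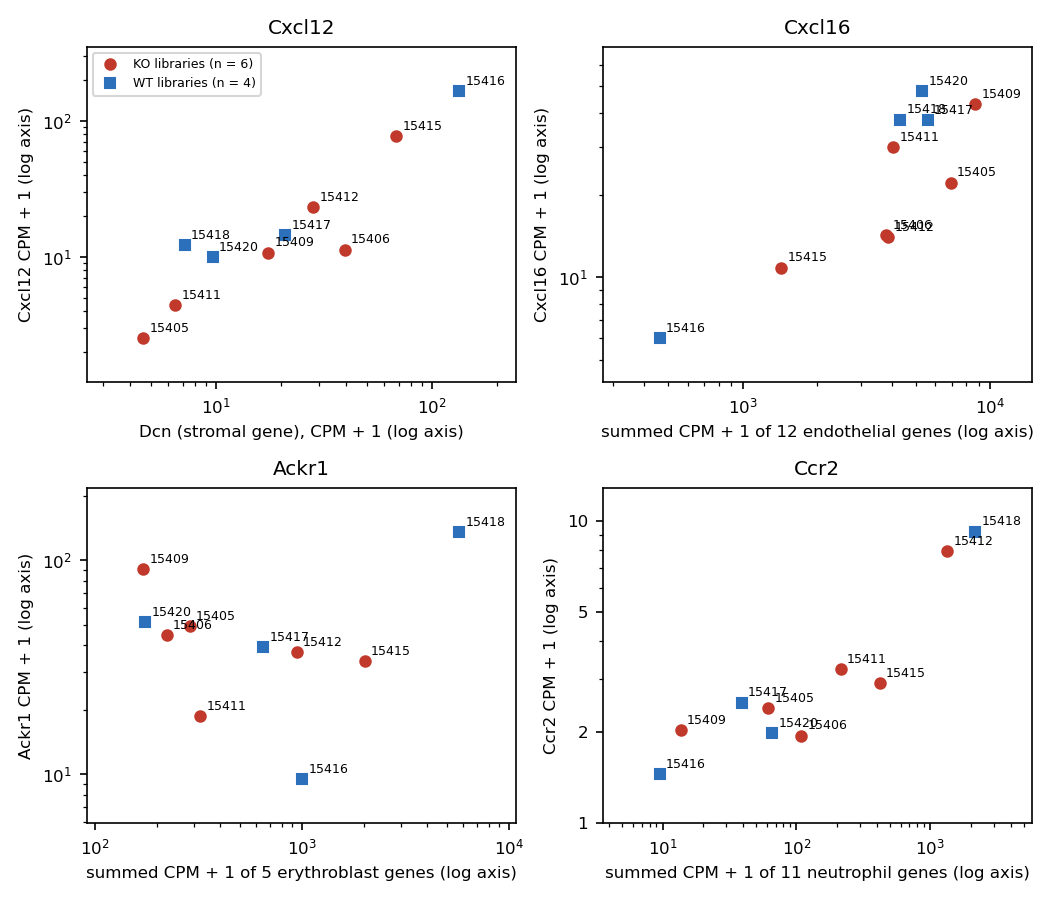
CPM + 1 of Cxcl12, Cxcl16, Ackr1 and Ccr2 (log axes, vertical) in each library beside CPM + 1 of Dcn and the summed CPM + 1 of endothelial, erythroblast and neutrophil genes (horizontal), for 6 KO libraries (red circles) and 4 WT libraries (blue squares), with library numbers. WT 15416 and KO 15415 lie at the upper right for Cxcl12 and at the lower left for Cxcl16, and WT 15418 and KO 15412 at the upper right for Ccr2. Dcn is a single gene of the 9 stromal genes. Their sum is not shown and was highest in KO 15406 (299.7 CPM).

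Cxcr2, the receptor of the neutrophil attractants, was present in every library. It was at 6.28 to 17.7 CPM (median 10.2) in KO and 13.8, 8.52, 8.36 and 12.7 CPM in WT, with a log2 fold change of -0.07 (standard error 0.37, 95% interval -0.87 to 0.73, adjusted p = 0.942). KO 15412 was the highest library, but WT 15418, with the highest sum of neutrophil genes, had 1 of the lower values, and WT 15416, with the lowest sum (8.49 CPM), had the second highest. Of its ligands, Cxcl1 was at 1.04 to 10.1 CPM (median 2.90) in KO and 0.53, 0.53, 1.85 and 4.53 CPM in WT (log2 fold change 1.25, standard error 0.86, adjusted p = 0.462). Cxcl2 had 12, 0, 0, 9, 62 and 0 counts in the KO libraries and 0 in all 4 WT libraries. It did not pass the test (unadjusted p = 0.0289, adjusted p = 0.208), and 3 of 6 KO libraries had 0 counts as well. KO 15412 held 62 of the 83 counts. Its KO mean was 0.51 CPM with that library and 0.23 CPM without it, where 3 counts in each WT library would be 0.285 CPM on average, so no lower bound on a fold is given. Cxcl3, Cxcl5 and Cxcl15 had 23, 17 and 63 counts in all.

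Cxcr3, the receptor of the interferon-induced chemokines, is on the X chromosome of GRCm38 from 101731535 to 101734269. It was at 1.45 to 9.64 CPM (median 4.97) in KO and 1.52, 1.69, 3.18 and 0 CPM in WT. The medians differed, but 2 KO libraries were below the highest WT library, KO 15409 and KO 15415, and the log2 fold change was 1.64 (standard error 0.90, 95% interval -0.30 to 3.59, adjusted p = 0.352). The KO libraries with Xist held the highest Cxcr3 level of the group (KO 15406) and 1 of its lowest (KO 15409, 2.54 CPM). Cxcl10 was at 1.40 to 10.8 CPM (median 3.22) in KO and 0.46, 0.89, 6.06 and 3.40 CPM in WT (log2 fold change 0.63, standard error 0.79, adjusted p = 0.725). The other ligands of Cxcr3, Cxcl9 and Cxcl11, had 41 and 54 counts in all, and Cxcl11 shares 41.7% of its exonic bases with Gm2673 on the other strand.

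The remaining members were rare. Ccr7, a receptor of lymphocytes and dendritic cells, had 39 counts, and its ligands Ccl19 and Ccl21a had 76 and 19. Ccl20, Ccl28, Cxcl14 and Cxcl17 had 37, 26, 18 and 25 counts, and Cxcr5 had 5. Each of these was at no more than 2.351 CPM in every library. Ccl21a has near-identical copies, so its few counts are uncertain.

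By level per transcript length, Ackr1 was the first receptor in 10 of 10 libraries, and the rest of the order was less firm. Among the receptors described, the means after Ackr1 and Cxcr4 were 4.52 ± 1.80 TPM for Ackr3, 3.36 ± 1.02 for Cxcr2, 2.69 ± 1.79 for Ackr2 and 2.40 ± 2.37 for Cxcr3 (SD, n = 10 libraries each). Each of these exceeded the next of those described in 6 to 8 of 10 libraries, and neighbours lay within 1 SD of each other. Among ligands, Ccl4 exceeded Cxcl16 in 5 of 10 libraries. They were followed by Ccl27a at 8.78 ± 5.64 TPM, Cxcl12 at 8.45 ± 11.1 and Ccl25 at 8.16 ± 2.44 (SD, n = 10 libraries each), which do not differ beyond their spread. Ccl25 exceeded Cxcl12 in 8 of 10 libraries, although its mean was lower.

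Of chemokine genes with other names, none passed the test. Pf4 and Ppbp, the platelet chemokines, were at 32.7 to 1376 CPM (median 445.3) and 7.91 to 715 CPM (median 369.2) in KO. In WT, Pf4 was at 73.4, 293, 182 and 469 CPM and Ppbp at 21.4, 170, 108 and 343 CPM. Their log2 fold changes were 1.10 (standard error 0.97, adjusted p = 0.591) and 1.21 (standard error 1.20, adjusted p = 0.638). The 10 megakaryocyte genes summed to 243 to 2670 CPM in KO and 217 to 867 CPM in WT, and their part in the platelet chemokines was not tested. Cx3cl1, Cx3cr1, Xcr1 and Ccrl2 had adjusted p-values of 0.601 to 0.911, so 0 of the 6 related genes in the table passed.

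Among genes of chemokine receptor signalling and chemokine handling, a pair passed the test. The list of 42 genes holds mostly signalling proteins that act after the receptors, but also Dpp4, which cleaves chemokines, the ligand Mif and its receptor Cd74. Of these 42 genes, 2 passed as higher in KO and 0 as lower at an adjusted p below 0.1 (1.32% and 2.67% of all genes tested). An unadjusted p below 0.05 was found for 8 genes in the higher direction and 0 in the other (8.6% and 10.2% of all genes tested). Their median log2 fold change was 0.30, against 0.06 over all genes tested. Pik3cg, the catalytic subunit of the phosphoinositide 3-kinase that G protein-coupled receptors activate, was at 40.4 to 105 CPM (median 77.9) in KO and 10.6, 31.6, 21.7 and 36.5 CPM in WT. It rose, with a log2 fold change of 1.53 (standard error 0.37, 95% interval 0.74 to 2.33, adjusted p = 0.0824). Its groups did not overlap, which held for 1 of the 42 genes and for 2.88% of all genes tested with KO as the higher group. Grk3, a kinase that phosphorylates active receptors, was at 1.68 to 47.3 CPM (median 33.6) in KO and 4.47, 6.57, 7.03 and 2.83 CPM in WT. It rose by a log2 fold change of 2.53 (standard error 0.69, 95% interval 1.04 to 4.02, adjusted p = 0.0913), and KO 15409, unlike the other KO libraries, lay below all of WT.

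The next genes of that list by p did not pass in edgeR. Elmo1 and Dock2, which together activate Rac in migrating leukocytes, had log2 fold changes of 1.63 (standard error 0.50, adjusted p = 0.117) and 1.68 (standard error 0.53, adjusted p = 0.129). Plcb2, a phospholipase activated by G protein subunits, had 1.72 (standard error 0.54, adjusted p = 0.126). In DESeq2 with the setting of the study, Elmo1, Dock2 and Plcb2 passed (adjusted p = 0.0416, 0.0467 and 0.0472), as did Pik3cg and Grk3. In edgeR, the smallest p in the lower direction belonged to Gnb1 (-0.38, standard error 0.29, adjusted p = 0.514), Rgs10 (-0.52, standard error 0.49, adjusted p = 0.618) and Gnai3 (-0.17, standard error 0.18, adjusted p = 0.65). Of the 12 LT-HSC markers without Cd48 and Flt3, 4 (Hlf, Mecom, Cd34 and Hoxa9) passed as higher in KO, against 1.32% of all genes tested. Ly6a went the other way (log2 fold change -0.88, adjusted p = 0.577 in edgeR). KO 15409, the lowest KO library for Pik3cg and Grk3, also had the lowest sum of these 12 genes in its group. Within WT, 15418 had the lowest sum (664 CPM) but the highest Grk3 (7.03 CPM). The part of these markers in the result was not tested. With 1 library left out, the number of genes of that list higher in KO lay between 0 and 8. It was 0 without KO 15405, 15406, 15411, 15412 or 15415 or WT 15416 or 15418, 1 without WT 15417 or 15420, and 8 without KO 15409. It was also 0 with an offset for transcript length or with Xist as a covariate.

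**Figure D5:**
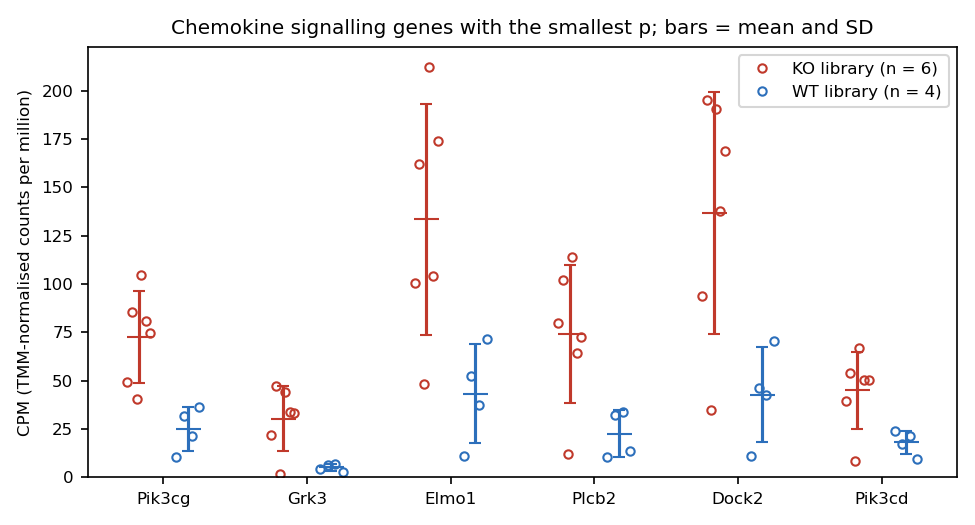
CPM of the 6 genes with the smallest p among 42 genes of chemokine receptor signalling and chemokine handling, as circles for 6 KO (red) and 4 WT (blue) libraries, with the mean and SD of each group as bars. Pik3cg is the only 1 of the 6 whose groups do not overlap, and only Pik3cg and Grk3 passed after adjustment in edgeR. Of all genes tested, 2.88% had groups that did not overlap with KO as the higher group.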

How the data were processed

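Per the labels and the study's methods, RNA of sorted LT-HSCs was amplified by SmartSeq2 and sequenced as single-end reads without molecular identifiers or strand. The submitters' processing notes name bcl2fastq 2.20 and kallisto 0.44.0. The authors deposited expected (estimated) counts, summed to genes and rounded, and per library the transcripts' expected counts and TPM, which kallisto scales for effective length; 99.5% of members' gene counts were within 1 count of the transcript sums. The members, gene lists and alternatives were chosen with earlier results of these data known. A gene needed 11 counts in total and was tested over the whole table with edgeR 4.0.16 (TMM, robust glmQLFit, glmQLFTest) in R 4.3.3, with a Benjamini-Hochberg adjusted p below 0.1. DESeq2 1.42.0 was the alternative. Standard errors come from the F statistic. The test was also run on simulated data, with large changes planted in well-counted genes and a fixed spread between libraries. That run does not show how well changes are found in members with few counts or a wider spread. Members with a mean of at least 2 CPM in KO or WT, those called by edgeR or DESeq2 with the study's settings, Cxcr4 and Cxcl12 are given with values per library, and the others by their total count. The values of 1 member are not reported here; it stays in the sums and counts over the family. Promoter sequences were to be shown only for members past the threshold, and 0 passed. A count of 0 allows up to 3 counts, by counting error only. WT embryos were littermate controls, but the labels do not tie libraries to litters, so litter is in no fit. The p-values set the group difference against the spread between these libraries. They treat the libraries as independent, though some may share a litter. Positions and exon overlaps are from Gencode vM21, on the same build as the authors' vM16. Tables and figures used Python 3.11.15, pandas 2.3.3 and matplotlib. Alternatives were other normalisations, filters, tools and thresholds, covariates for Xist and, chosen after seeing the data, for endothelial genes, offsets for transcript length, and libraries left out, among them the 3 rich in hepatoblast RNA. Sums were also computed without and with TMM factors in CPM and TPM.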

Additional observations from a re-analysis of the deposited data

Results flagged for a closer look

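In groups of 4 to 6 libraries, the highest library of a gene was set apart from the others by most of the group's range (Dixon's criterion at 95%) in 8 of the 52 groups of values looked at, 22 members and 4 sums in 2 genotypes. For independent values with a normal spread, chance alone gives about 1 in 20. These CPM were not log-transformed and the genes share libraries, so 8 of 52 is not read as more than chance. For Cxcl12, KO 15415 (76.1 CPM, the others at most 22.2) and WT 15416 (164 CPM, the others at most 13.4) stood apart. For Ccr2, KO 15412 (6.93 CPM, the others at most 2.23) and WT 15418 (8.21 CPM, the others at most 1.51) did. WT 15420 stood apart for Ccl2 (17.97 CPM, the others at most 2.57). KO 15412 also stood apart for Ccl24 (4.64 CPM, the others at most 1.05), Cxcl10 (10.8 CPM, the others at most 3.68) and Cxcr2 (17.7 CPM, the others at most 10.3).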

How the results depend on the processing

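Counts of the family past the threshold were 0 and 0 in every setting but DESeq2 without a fold-change threshold (1 higher and 1 lower). Counts of the 42 genes of receptor signalling and chemokine handling higher in KO moved with DESeq2 with (5) and without (6) its threshold, and to 0 with Xist as a covariate, an offset for transcript length, an adjusted p below 0.05 or, chosen after seeing the data, without the 3 libraries rich in hepatoblast RNA; leaving out 1 library gave 0 to 8. The log2 ratio of group means of summed ligands was 0.38 in TPM, -0.02 without Cxcl12 and -0.52 to -0.10 with 1 library left out; that of receptors was -0.42 to 0.18 with 1 library left out. Of 506 log2 fold changes of the 22 members under alternatives, 490 kept direction and side of the threshold, 2 passed it and 14 changed sign. Sign changes came from Ccl9 with Xist as a covariate (-0.49), Cxcr2 with the endothelial covariate (0.018), and Ackr1 (0.64) and Ccr2 (0.55) without the libraries rich in hepatoblast RNA. With 1 library left out, the ranges were -0.73 to 0.51 for Ackr1, -0.10 to 0.61 for Ackr2, -0.79 to 0.13 for Ccl6, -0.89 to 1.33 for Ccr2, -0.83 to 0.37 for Ccr3, -2.39 to 0.88 for Cxcl12 and -0.25 to 0.069 for Cxcr2. The cause was not tested. No paired analysis was possible because the labels do not say which KO and WT embryos shared a litter. At this depth, members at a few counts cannot be compared.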
